A study of Mus musculus with 4 samples.

Results

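Mitochondrial ribosomal protein genes were examined in hair follicle stem cells (HFSCs) of Hes1eKO and control mice. Members were the array rows whose only annotated gene symbol starts with Mrpl or Mrps followed by a number, with pseudogenes left out. These were 80 rows for 71 genes, of 22180 genes that had a row with a single symbol, and 9 of the 71 genes had several rows. For those the row that was brightest on average was used. By symbol, 43 members belong to the large subunit (Mrpl) and 28 to the small subunit (Mrps). RefSeq holds 78 protein-coding Mrpl and Mrps genes. The other 7 (*Mrpl30*, *Mrpl33*, *Mrpl41*, *Mrpl43*, *Mrpl44*, *Mrpl53* and *Mrps6*) were annotated on these arrays only in rows shared with another gene and were not members.

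The mitochondrial ribosome (mitoribosome) is the ribosome inside mitochondria. Its RNAs are encoded by mitochondrial DNA, whereas all of its proteins are encoded in the nucleus, made in the cytosol and imported. It translates the few mRNAs of the mitochondrial genome, which encode core subunits of the respiratory chain and of ATP synthase, so oxidative phosphorylation needs proteins from both translation systems. The large subunit forms the peptide bond and the exit tunnel, and the small subunit binds the mRNA and decodes it. Some mitoribosomal proteins have bacterial counterparts and others are found only in mitochondria. Quiescent HFSCs of the bulge, the niche of the resting follicle, are known to rely on glycolysis more than many of their progeny do.

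RNA came from CD34+CD49f+ cells sorted from telogen (resting phase) back skin, labelled postnatal day 70, and was read on Mouse Gene 2.0 ST arrays of Affymetrix, with 1 array per sample. The Hes1eKO group (2 arrays) was Hes1 fx/fx;K14-Cre, with floxed *Hes1* alleles deleted by K14-Cre, which is active in the whole K14-expressing epithelium and not only in the bulge. The control group (2 arrays) was made of littermates, Hes1 fx/fx or Hes1 fx/wt, matched for age and gender. The study places the array mice in telogen after depilation, and its methods describe a mixed C57BL/6 and ICR background. Each array was a separate pool of 2 mice, and below an array is named by its group and its replicate number.

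The deposited values are on the log2 scale, so a difference of 1 is a doubling of signal, and the array medians over all rows lay between 4.36 and 4.39. *Hes1*, the deleted gene, was measured at 5.05 and 4.37 in Hes1eKO and at 5.34 and 5.04 in control, a log2 fold change of -0.48 (SE 0.30, unadjusted p = 0.183 by limma), with *Hes1* of replicate 1 in Hes1eKO slightly above replicate 2 in control. Bulge and basal keratinocyte markers (9 of 10 measured) had median levels of 9.63 and 9.16 in Hes1eKO and of 8.96 and 8.97 in control. *Krt15* lay between 11.23 and 11.63. *Cd34*, used for the sort, measured 9.85 and 11.17 in Hes1eKO and 10.70 and 11.24 in control, lowest in Hes1eKO replicate 1. *Tcf7l1* measured 7.77 and 7.54 in Hes1eKO and 6.48 and 7.33 in control. T cell markers (6 of 8 measured) had median levels of 3.47 and 3.78 in Hes1eKO and of 5.15 and 4.09 in control. Langerhans cell and macrophage markers (5 of 6) stood at 4.85 and 4.71 against 5.81 and 4.92, and proliferation genes (4 of 5) at 4.62 and 4.65 against 5.95 and 5.44. Control replicate 1 therefore had the highest median for each of the last 3 lists. Array values have no true zero, and the part of these cells in the values below was not tested. In bulk RNA, fewer cells of a type and less RNA per cell cannot be told apart.

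The mean level of a mitoribosomal gene over the 4 arrays ran between 3.38 (*Mrps36*) and 9.45 (*Mrps16*), with a median of 6.63. Of the 71 members, 67 passed a filter on dim rows, which asked for a value over 4.38 (the overall median) on 2 or more arrays. The brightest rows of the large subunit were those of *Mrpl24*, *Mrpl52* and *Mrpl55*, and those of the small subunit were *Mrps16*, *Mrps18a* and *Mrps11*. Levels of different genes are signals of different probes, so this order describes the array and not the amounts of mRNA.

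No member passed the study threshold between the genotypes (fold change above 1.5 in either direction and unadjusted p under 0.05 by limma). The count was 0 of 71, while 1.66% of the 22180 genes and 3.2% of all 41345 rows passed it. The lowest unadjusted p of a member was 0.0635 (*Mrps15*), no member fell below 0.05 where 2.33% of genes did, and the lowest Benjamini-Hochberg adjusted p over all rows was 0.829. With 2 arrays a group the number of arrays limits the precision, and the median SE of a member's log2 fold change was 0.24.

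The values nevertheless lay on 1 side. The median log2 fold change over the members was -0.24 (range -0.63 to 0.66), against -0.0031 over all genes, and it was negative for 61 of 71 members (85.9%), where 50.5% of all genes were negative. The array medians were 6.42 and 6.62 in Hes1eKO and 6.95 and 6.60 in control. Hes1eKO replicate 1 was thus the low array and control replicate 1 the high one, while the arrays numbered 2 lay close together. Within number 1 the median difference, Hes1eKO minus control, was -0.50, and within number 2 it was 0.03. The median log2 fold change was -0.11 without control replicate 1, -0.15 without Hes1eKO replicate 1 and -0.38 without control replicate 2. Members had no overlap between the groups with Hes1eKO lower in 25 cases (15.8% of all genes) and with Hes1eKO higher in 1 case, *Mrps14* (16.2% of all genes).

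In 40 of 71 members control replicate 1 was the highest and Hes1eKO replicate 1 the lowest of the 4 arrays, a combination found in 11.2% of all genes and in 12.3% of those past the filter on dim rows. The difference was negative within number 1 in 62 members, where 50.2% of genes were negative, and within number 2 in 34, where 48.2% of genes were. Both differences were negative in 28 members (24.9% of genes) and both positive in 3 (5766 of 22180 genes), namely *Mrps14*, *Mrps36* and *Mrps9*. In 34 members the difference was negative within number 1 and positive within number 2 (5549 of 22180 genes), and in 6 it was the other way round (5071 of 22180).

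**Figure D1:**
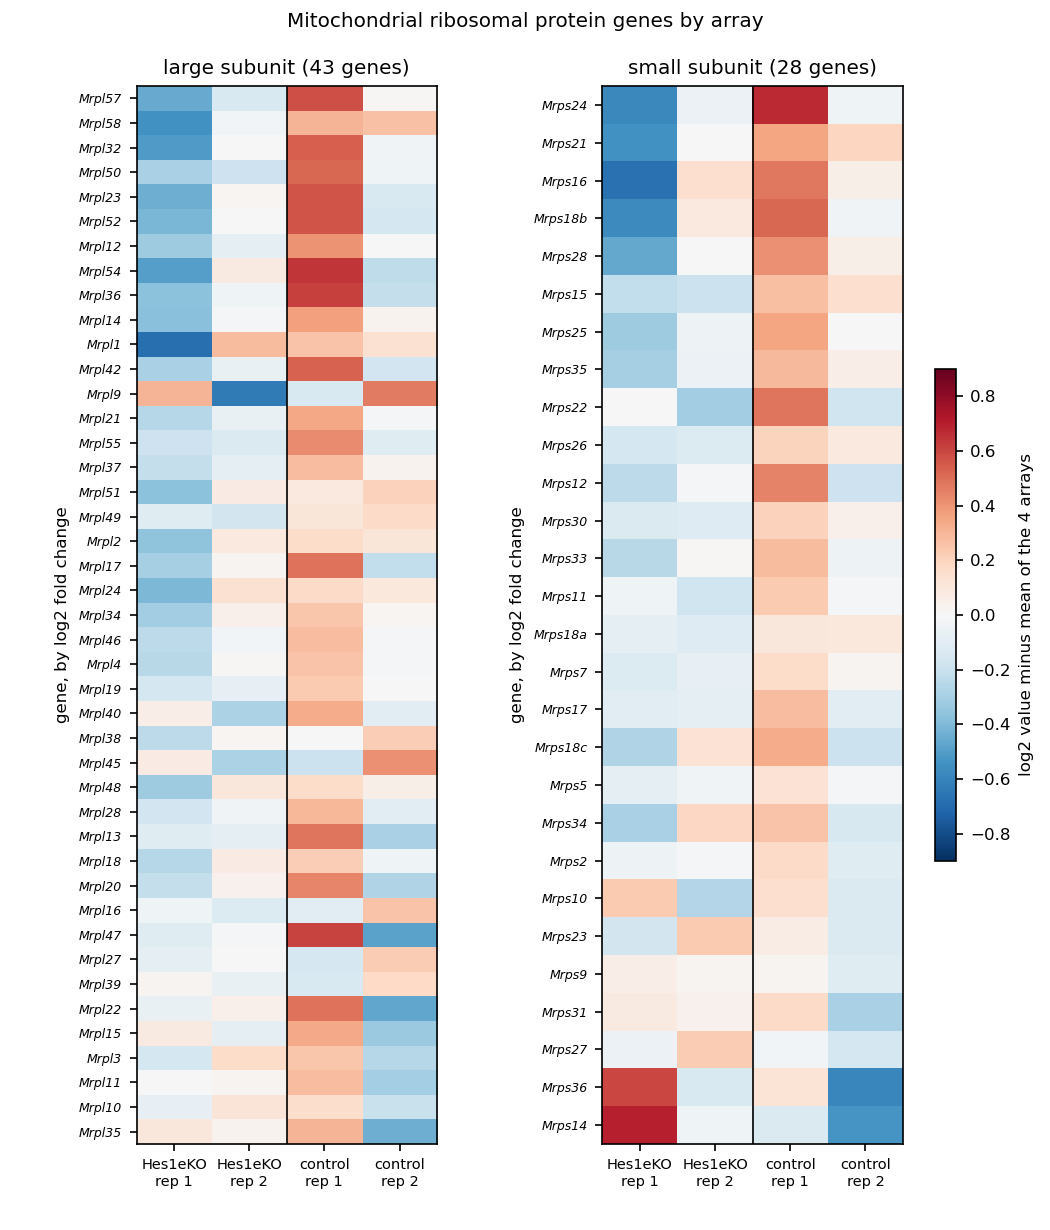
Deviation of each mitoribosomal gene from its mean over the 4 arrays (colour, log2), with genes in rows ordered by log2 fold change and arrays in columns, Hes1eKO left of control. Hes1eKO replicate 1 is mostly blue and control replicate 1 mostly red, while both arrays numbered 2 are pale, with *Mrpl9*, *Mrpl45*, *Mrps14* and *Mrps36* among the exceptions.

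**Figure D2:**
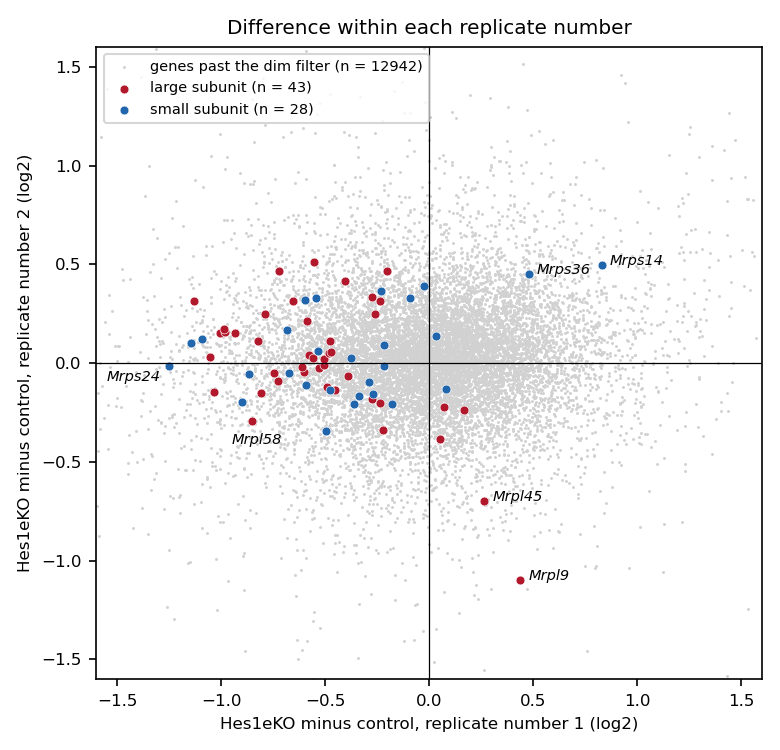
Hes1eKO minus control within replicate number 1 (x axis, log2) and within replicate number 2 (y axis, log2) for 43 large subunit genes (red), 28 small subunit genes (blue) and the 12942 genes past the filter on dim rows (grey). The members' points are shifted to the left of 0 (median -0.50) and are spread about 0 on the vertical axis (median 0.03). A few grey points lie outside the axis limits.

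Large subunit genes had array medians of 6.65 and 6.89 in Hes1eKO and of 7.10 and 6.75 in control. Their median log2 fold change was -0.27, and 39 of 43 were negative. Within number 1 the median was -0.53 (range -1.13 to 0.44) and within number 2 it was 0.03 (range -1.10 to 0.51). The groups did not overlap in 13 of the 43, each with lower values in Hes1eKO, where 15.8% of all genes had this pattern.

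*Mrpl57*, a small protein found only in mitochondria, had the lowest log2 fold change of the large subunit. It measured 5.45 and 5.77 in Hes1eKO and 6.48 and 5.91 in control, a log2 fold change of -0.59 (SE 0.28, unadjusted p = 0.094 by limma). Both Hes1eKO values lay below both control values. *Mrpl58*, a peptidyl-tRNA hydrolase that became a ribosomal protein and was long named Ict1, measured 6.88 and 7.40 in Hes1eKO and 7.73 and 7.69 in control (log2 fold change -0.57, SE 0.24, unadjusted p = 0.072). Its control values were nearly equal and both Hes1eKO values were below them. *Mrpl32*, known in yeast and mouse as a substrate of the m-AAA protease, whose cleavage precedes ribosome assembly, measured 5.18 and 5.69 in Hes1eKO and 6.23 and 5.66 in control (-0.51, SE 0.31). Its groups overlapped, since the arrays numbered 2 were alike.

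*Mrpl50* measured 6.85 and 6.95 in Hes1eKO and 7.66 and 7.10 in control (log2 fold change -0.48, SE 0.25). *Mrpl49* was shifted less but by a similar amount in both numbers, with 6.90 and 6.85 in Hes1eKO and 7.12 and 7.19 in control (-0.28, SE 0.17, unadjusted p = 0.161). Neither gene's groups overlapped. *Mrpl12*, which sits in the stalk that recruits translation factors and is also reported to bind the mitochondrial RNA polymerase, was among the dimmest large subunit genes at 4.02 and 4.26 in Hes1eKO and 4.75 and 4.35 in control (-0.41, SE 0.23). Its groups did not overlap either.

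Among the brightest large subunit genes, *Mrpl24* measured 8.85 and 9.39 in Hes1eKO and 9.42 and 9.35 in control (log2 fold change -0.27, SE 0.25), *Mrpl52* measured 8.03 and 8.44 against 9.01 and 8.29 (-0.41, SE 0.33), and *Mrpl55* measured 7.86 and 7.92 against 8.47 and 7.94 (-0.32, SE 0.25). Only the last of these 3 had groups without overlap. At the other end, *Mrpl35* measured 6.07 and 5.996 in Hes1eKO and 6.27 and 5.53 in control, and its log2 fold change of 0.13 (SE 0.30) was the highest of the large subunit. *Mrpl10*, which anchors the stalk, *Mrpl11*, at the stalk base, and *Mrpl3*, near the peptide-bond centre, had log2 fold changes of 0.04, 0.03 and 0.01, each far smaller than its SE (0.22, 0.26 and 0.26). In all 4 genes control replicate 1 was the highest array and control replicate 2 the lowest.

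Small subunit genes had array medians of 6.26 and 6.41 in Hes1eKO and of 6.70 and 6.42 in control. Their median log2 fold change was -0.20, with 22 of 28 negative, a median of -0.37 within number 1 (range -1.25 to 0.83) and a median of 0.01 within number 2 (range -0.34 to 0.49). The groups did not overlap in 12 genes with Hes1eKO lower (15.8% of all genes) and in 1 with Hes1eKO higher (16.2% of all genes). Both subunits thus showed the shift of the arrays numbered 1, and whether its size differs between the subunits was not tested.

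*Mrps24* had the lowest log2 fold change of all members, -0.63 (SE 0.34, unadjusted p = 0.133). It measured 5.85 and 6.37 in Hes1eKO and 7.10 and 6.38 in control, so nearly all of the difference lay within number 1. *Mrps21* measured 5.55 and 6.10 in Hes1eKO and 6.46 and 6.29 in control (-0.55, SE 0.25, unadjusted p = 0.091), with no overlap. *Mrps16*, a conserved small subunit protein whose loss causes a mitochondrial disease in humans, measured 8.78 and 9.60 in Hes1eKO and 9.93 and 9.50 in control (-0.52, SE 0.35). Here replicate 2 of Hes1eKO was above replicate 2 of control.

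*Mrps15* and *Mrps26* had replicates that lay closer to each other. *Mrps15*, which has a bacterial counterpart, measured 7.29 and 7.32 in Hes1eKO and 7.79 and 7.66 in control (log2 fold change -0.42, SE 0.17, unadjusted p = 0.0635). *Mrps26*, found only in mitochondria, measured 6.20 and 6.24 in Hes1eKO and 6.56 and 6.45 in control (-0.28, SE 0.17, unadjusted p = 0.164). For both genes each Hes1eKO value was below each control value. *Mrps11*, among the brightest of the small subunit, measured 7.62 and 7.48 in Hes1eKO and 7.89 and 7.63 in control (-0.21, SE 0.19).

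*Mrps14* and *Mrps36* stood at the other end and were the dimmest genes of the small subunit. *Mrps14*, a conserved protein of the small subunit head, measured 4.81 and 4.07 in Hes1eKO and 3.98 and 3.58 in control (log2 fold change 0.66, SE 0.33, unadjusted p = 0.110). The groups did not overlap, and the difference was positive within both numbers (0.83 and 0.49). It passed the study threshold once the replicate number was a term of the fit (unadjusted p = 0.0387), the only one of 71 members to do so, where 2.26% of all genes passed in that fit. *Mrps36*, which was first listed as a ribosomal protein and is now known as a subunit of the 2-oxoglutarate dehydrogenase complex, measured 3.98 and 3.25 in Hes1eKO and 3.50 and 2.79 in control (0.46, SE 0.38), and its groups overlapped. *Mrps27*, which also belongs to the pentatricopeptide repeat proteins that bind RNA, and *Mrps31* had log2 fold changes of 0.18 (SE 0.20) and 0.12 (SE 0.23).

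The 3 mammalian relatives of the same bacterial small subunit protein did not share 1 pattern. *Mrps18a*, placed in the large subunit by structure in spite of its name, measured 7.69 and 7.65 in Hes1eKO and 7.87 and 7.86 in control (log2 fold change -0.19, SE 0.16), with tight replicates and no overlap. *Mrps18b* measured 7.06 and 7.73 in Hes1eKO and 8.15 and 7.60 in control (-0.48, SE 0.34), but its other row gave -0.01. *Mrps18c* measured 5.79 and 6.18 in Hes1eKO and 6.39 and 5.86 in control (-0.14, SE 0.28), and its other row gave 0.40. The rows of these last 2 genes differed, so their values are uncertain.

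**Figure D3:**
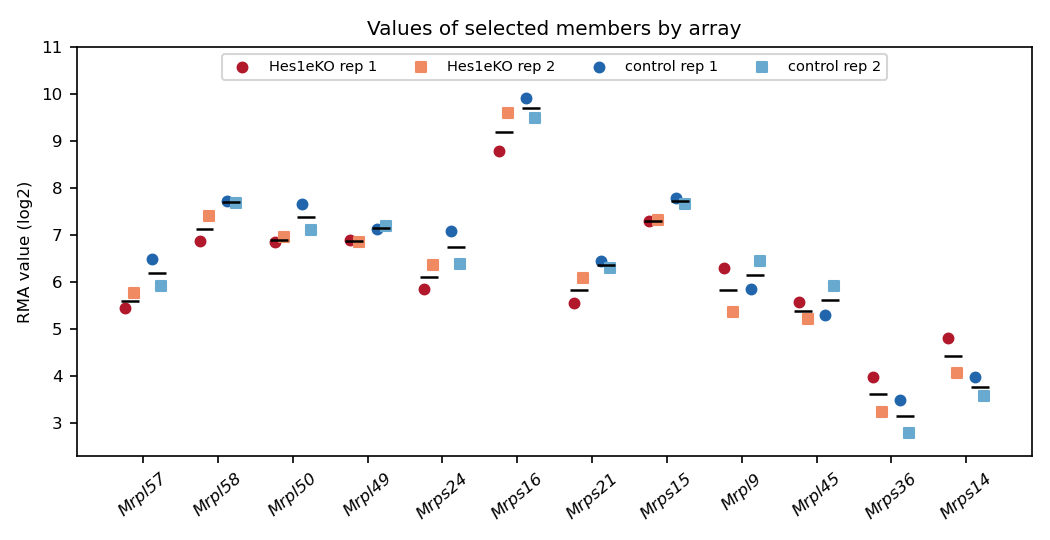
Values of 12 mitoribosomal genes on each array (y axis, log2 RMA value), with Hes1eKO left of control for each gene and a bar at the mean of the 2 arrays. *Mrpl57*, *Mrpl58*, *Mrpl50*, *Mrpl49*, *Mrps24*, *Mrps21* and *Mrps15* have groups without overlap and lower values in Hes1eKO, and *Mrps14* has the reverse. *Mrpl9* and *Mrpl45* have opposite orders within the 2 replicate numbers.

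The 6 genes with a positive difference within number 1 and a negative one within number 2 were chosen after their values were seen. They are *Mrpl9*, *Mrpl16*, *Mrpl27*, *Mrpl39*, *Mrpl45* and *Mrps10*. *Mrpl9* measured 6.30 and 5.36 in Hes1eKO and 5.86 and 6.46 in control (log2 fold change -0.33, SE 0.41), and *Mrpl45* measured 5.58 and 5.22 in Hes1eKO and 5.31 and 5.92 in control (-0.22, SE 0.29). Within number 2 these 2 genes had the most negative differences of all members, -1.10 and -0.70. *Mrpl27*, one of the dimmest members of the large subunit, measured 4.26 and 4.34 in Hes1eKO and 4.19 and 4.57 in control (-0.08, SE 0.21). In *Mrpl9*, *Mrpl27* and *Mrpl45* control replicate 2, and not control replicate 1, was the highest array.

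Members were classed as having a bacterial counterpart (43) or as found only in mitochondria (27). Median log2 fold changes of these classes were -0.21 and -0.28, with 37 and 24 negative values. Their medians within number 1 were alike at -0.51 and -0.49. Within number 2 they were 0.04 and -0.11, and 17 of 43 and 17 of 27 members were negative there. *Mrps36* was counted in neither class. *Mrps18b* was counted as found only in mitochondria although it is a relative of a bacterial protein, so the class labels are approximate. The difference between the classes was not tested.

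Promoter windows of members were taken from RefSeq (GRCm38.p6), covering 250 bases before to 50 bases after the start of each listed transcript. They were available for 62 of 71 members as 68 windows of 300 bases. Mitoribosomal promoters are known for sites of NRF1, a factor that activates many nuclear genes of the respiratory chain, and of ETS factors such as GABP (also named NRF2) and of YY1. The NRF1 letters (GCGC, any base, then TGCGC) were found on either strand in 11 of 68 member windows (16.2%), against 4.6% of all 32851 windows and 6.38% of the 21262 windows of protein-coding genes. The ETS letters CCGGAAGT were found in 10 windows (14.7%), against 3.89% of all and 5.15% of protein-coding windows. The YY1 letters (AAGATG directly followed by GCGGC) were found in 5 windows (7.35%), against 0.633% and 0.889%.

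HES1 is a repressor that binds N-box and related E-box or class C sites. CACNAG (N-box) was found in 41.2% of member windows, against 42.5% of all and 41.9% of protein-coding windows. CACGTG (E-box) was found in 10.3%, against 7.15% of all and 7.84% of protein-coding windows, and CACGCG (class C) in 14.7%, against 9.27% and 12.1%. A NRF1 match overlapped a class C match in 3 pairs. A match only says that the letters occur in the window. The stretches below were picked with their values known. They show the NRF1 letters in genes with opposite signs within replicate number 1. Within number 2 *Mrpl57* (-0.15) and *Mrps21* (-0.20) were negative like *Mrpl9* (-1.10) and *Mrpl45* (-0.70), and *Mrpl32* stood at 0.03. They also show the ETS letters in *Mrpl3* (log2 fold change 0.01) and *Mrps18c* (-0.14, but 0.40 in its other row). Other members with the same letters had other values, such as *Mrpl52* with the ETS letters (-0.41) and *Mrpl39* with the NRF1 letters (-0.04). Each stretch shown has 90 bases, lies wholly upstream of the RefSeq start and is written 5′ to 3′ along the gene's strand. Matched NRF1 or ETS letters are in capitals on whichever strand they lie. Matches of the E-box, class C and N-box letters are not marked.
*Mrpl57* (chr14:57826142-57826231, plus strand): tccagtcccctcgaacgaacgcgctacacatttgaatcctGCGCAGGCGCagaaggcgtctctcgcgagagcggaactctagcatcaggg
*Mrpl32* (chr13:14613075-14613164, minus strand): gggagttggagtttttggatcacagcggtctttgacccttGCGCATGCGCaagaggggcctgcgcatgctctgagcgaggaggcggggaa
*Mrps21* (chr3:95871556-95871645, minus strand): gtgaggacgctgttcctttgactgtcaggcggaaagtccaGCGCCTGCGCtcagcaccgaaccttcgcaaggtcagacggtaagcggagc
*Mrpl9* (chr3:94443246-94443335, plus strand): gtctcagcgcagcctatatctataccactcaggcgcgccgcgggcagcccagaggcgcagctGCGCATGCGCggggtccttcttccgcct
*Mrpl45* (chr11:97315626-97315715, plus strand): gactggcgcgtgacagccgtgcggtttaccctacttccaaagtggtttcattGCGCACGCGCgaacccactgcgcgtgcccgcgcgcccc
*Mrps18c* (chr5:100798561-100798650, plus strand): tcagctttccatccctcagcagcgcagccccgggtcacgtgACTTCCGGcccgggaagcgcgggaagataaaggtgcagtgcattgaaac
*Mrpl3* (chr9:105053178-105053267, plus strand): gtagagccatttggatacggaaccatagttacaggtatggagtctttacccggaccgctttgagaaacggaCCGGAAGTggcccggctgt

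The first 3 stretches belong to genes whose values were lowest in Hes1eKO replicate 1. *Mrpl9* and *Mrpl45*, with the opposite order within number 1, hold the same NRF1 letters, and *Mrps18c* and *Mrpl3* hold the ETS letters. Members with the NRF1 letters had a median log2 fold change of -0.33 (11 genes), against -0.23 for members without them (51 genes). With and without the ETS letters the medians were -0.20 (10 genes) and -0.26 (52 genes), and with and without the YY1 letters -0.19 (5 genes) and -0.26 (57 genes). These are descriptions, and no difference between them was tested.

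Mitoribosomal proteins under other symbols were listed separately, together with the associated proteins *Ndufab1* and *Oxa1l*. Of 8 listed, 5 had a row of their own (*Dap3*, *Ptcd3*, *Gadd45gip1*, *Ndufab1* and *Oxa1l*), and Ict1 is the older name of *Mrpl58*. Their median log2 fold change was -0.10, with -0.22 within number 1 and 0.01 within number 2, and none passed the threshold. Whether this median differs from that of the members was not tested. *Dap3*, a GTP-binding protein of the small subunit that was first described in cell death, measured 6.24 and 6.38 in Hes1eKO and 6.46 and 6.37 in control (-0.10, SE 0.17). *Oxa1l*, the inserase that places new mitochondrial proteins in the inner membrane and binds the ribosome at its exit, measured 7.83 and 7.66 in Hes1eKO and 8.01 and 8.34 in control (-0.43, SE 0.21, unadjusted p = 0.101). Its groups did not overlap, and the larger difference was that within number 2 (-0.68).

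*Ndufab1*, the mitochondrial acyl carrier protein, which also serves complex I and assembly factors of the ribosome, measured 4.51 and 5.04 in Hes1eKO and 5.03 and 4.97 in control (-0.23, SE 0.25). Mitochondrial translation factors, which start, extend and end the peptide, had a median of -0.09 over 12 of 13 listed genes. All 12 were negative within number 1 (median -0.23) and 6 of 12 within number 2 (median -0.03), and none passed the threshold. *Mtrf1*, a release factor, measured 5.16 and 5.30 in Hes1eKO and 5.45 and 5.89 in control (-0.44, SE 0.23). *Guf1*, a back-translocating factor related to bacterial LepA, measured 6.26 and 6.36 in Hes1eKO and 6.46 and 6.80 in control (-0.31, SE 0.20).

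The 26 genes of mitoribosome assembly and rRNA processing had a median log2 fold change of -0.03 (15 negative), with -0.12 within number 1 and 0.14 within number 2. *Mtg1*, a GTPase that acts late in large subunit assembly, was the only one past the study threshold. It fell, with 5.42 and 5.01 in Hes1eKO and 5.98 and 5.75 in control (log2 fold change -0.65, SE 0.23, unadjusted p = 0.042 by limma), where 0.875% of genes and 1.54% of all rows passed in that direction. A Student's t-test, which the study names in its general statistics and not for the arrays, did not call it (unadjusted p = 0.108). Nor did limma without control replicate 1 (-0.54), control replicate 2 (-0.76) or Hes1eKO replicate 2 (-0.45).

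Mitochondrial tRNA synthetases (19 of 20) had a median log2 fold change of -0.06, and none passed the threshold. *Yars2*, which charges tyrosine tRNA, measured 6.28 and 6.61 in Hes1eKO and 7.12 and 6.58 in control (-0.41, SE 0.27), and *Aars2*, which charges alanine tRNA, measured 5.91 and 5.94 in Hes1eKO and 6.41 and 6.20 in control (-0.38, SE 0.18, unadjusted p = 0.098). Genes of mitochondrial transcription and DNA maintenance (12 of 13) had a median of 0.04. *Mterf2*, of the family of mitochondrial transcription termination factors, rose, with 6.41 and 6.31 in Hes1eKO and 5.64 and 5.87 in control (0.60, SE 0.18, unadjusted p = 0.0273 by limma), where 0.789% of genes and 1.65% of all rows passed in that direction. Its groups did not overlap. The call was lost without control replicate 1 (0.49), Hes1eKO replicate 1 (0.55) or Hes1eKO replicate 2 (0.65).

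Nuclear genes of the respiratory chain and of the cytosolic ribosome were set beside the mitoribosomal genes, and their arrays stood in a like order. Nuclear subunits of oxidative phosphorylation (78 genes) had array medians of 7.72 and 7.94 in Hes1eKO and of 8.34 and 7.85 in control, a median log2 fold change of -0.22 with 71 negative values, and medians of -0.52 within number 1 and 0.05 within number 2. Cytosolic ribosomal proteins (60 genes) had array medians of 8.10 and 8.50 in Hes1eKO and of 8.88 and 8.60 in control, a median of -0.15 with 52 negative values, and medians of -0.34 and 0.04 within the numbers. None of either family passed the threshold. Control replicate 1 was highest and Hes1eKO replicate 1 lowest in 41 of 78 and in 37 of 60 genes, against 40 of 71 mitoribosomal genes. Genes encoded by mitochondrial DNA were not analysed here.

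**Figure D4:**
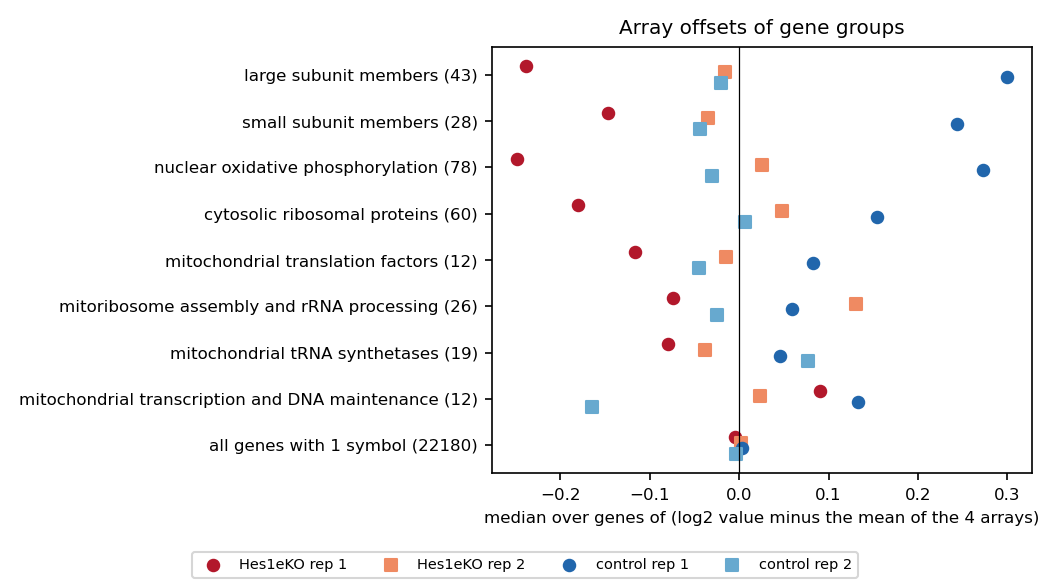
Median over the genes of each group of the log2 value minus the gene's mean over the 4 arrays (x axis), by gene group (rows, number of genes in parentheses) and array (Hes1eKO red, control blue, replicate 1 circles, replicate 2 squares). Hes1eKO replicate 1 is lowest and control replicate 1 highest for both ribosomal subunits (-0.24 and 0.30 for the large, -0.15 and 0.24 for the small). The same order holds for oxidative phosphorylation, cytosolic ribosomal proteins and mitochondrial translation factors (-0.12 and 0.08 for the last). All genes lie near 0.

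Marker lists of other cells also differed between the arrays. The T cell list had a median difference of -1.88 within number 1 and of -0.13 within number 2, with control replicate 1 highest in 4 of 6 genes and Hes1eKO replicate 1 lowest in 4 of 6. *Cd7* fell by the study threshold and measured 3.43 and 4.13 in Hes1eKO and 7.07 and 5.80 in control, so that it was lower within both numbers (-3.65 and -1.66). *Cd3g* measured 3.51 and 4.97 in Hes1eKO and 7.08 and 5.23 in control, whereas *Cd2* stood at 3.74 and 3.38 in Hes1eKO and at 3.56 and 3.33 in control. The Langerhans cell and macrophage list had medians of -0.97 and -0.21 within the numbers, with control replicate 1 highest in 4 of 5 genes but Hes1eKO replicate 1 lowest in 0 of 5. The melanocyte list had -0.60 and 0.31. The proliferation list differed in another way, being lower in Hes1eKO within both numbers (-1.16 and -0.79), and 3 of its 4 genes fell by the study threshold. In that direction, which is also that of *Cd7*, 0.875% of genes and 1.54% of all rows passed. The dissociation stress list was at 8.79 and 9.38 in Hes1eKO and at 8.66 and 9.26 in control, and so followed the replicate number in both groups. So did the medians of the dermal fibroblast list, at 5.07 and 6.37 in Hes1eKO and at 5.06 and 7.30 in control. Among its genes *Dcn* measured 3.88 and 9.95 in Hes1eKO and 4.83 and 10.42 in control. *Pdgfra* went the other way in Hes1eKO (5.31 and 4.78) but not in control (3.04 and 4.96). The endothelial list stood at 4.69 and 4.85 in Hes1eKO and at 4.74 and 4.55 in control. Its median differences within the numbers were 0.66 and -0.25, so it was higher in Hes1eKO within number 1. The adipocyte list stood at 4.57 and 4.55 against 4.22 and 4.54, with median differences of 0.21 and -0.31. The part of T cells, Langerhans cells, melanocytes, fibroblasts, endothelial cells, adipocytes, dividing cells or handling in the mitoribosomal values was not tested.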

How the data were processed

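The deposited values are log2 signals per transcript cluster (row), which the authors made with RMA in Affymetrix Expression Console 1.4.1 (background correction, normalization and summary of probes). All 41345 rows of the 4 arrays were used as deposited, and array columns were matched to samples by their labels. Gene symbols came from the platform annotation, with the 71 members matched to RefSeq, and no row coordinates were used. The members and gene lists were chosen with earlier results of these data known.

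Hes1eKO was compared with control for each row by lmFit and eBayes (limma 3.58.1, R 4.3.3) over the 4 arrays with no term for the replicate number, and p-values were adjusted over all rows (Benjamini-Hochberg). A row passed the study threshold with a fold change above 1.5 either way and an unadjusted p under 0.05. The script was tested on simulated data. Differences within a replicate number are Hes1eKO minus control of the same number, with no test, and a list is described by its counts and median beside those of all genes with 1 symbol. Named genes were those past the threshold, the 4 lowest and 4 highest log2 fold changes and the 3 highest and 2 lowest levels of each subunit, 6 members without overlap whose differences within both numbers were largest, the *Mrps18* relatives, *Mrps36*, *Dap3* and up to 2 genes of each list. Any other gene was picked with its values known.

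Alternatives were a term for the replicate number, a Student's t-test, quantile normalization and median centring, limma-trend and a filter on dim rows. Further ones were other rows per gene, another subunit assignment and leaving out each array. The t-test is called the methods' t-test because the study names it in its general statistics, though not for the arrays. The study speaks of control and mutant sample pairs and of littermate controls. Neither it nor the labels, which give the replicate numbers, says that a number marks a pair or litter, and with 2 pairs the numbers were not taken as pairing the samples. RNA of each pool was separate, so p-values measure the spread between pools. The methods name Partek software for the arrays without a model. Motifs were counted and figures drawn in Python 3.11.15 with pandas 2.3.3 and matplotlib 3.10.9.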

Additional observations from a re-analysis of the deposited data

How the results depend on the processing

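With the replicate number as a block, 1834 rows (4.44%) passed the threshold, among them 1 member in place of 0 (*Mrps14*), and no other named gene changed its call. Deviations of same-numbered arrays from their group means had a correlation of 0.143 over all 41345 rows. The members' array medians went opposite ways, with replicate 1 below replicate 2 in Hes1eKO (6.42 and 6.62) and above it in control (6.95 and 6.60). All rows past the threshold numbered 1321, against 469 by the methods' t-test and 719 after the filter on dim rows, and between 1275 and 2538 with 1 array left out. The highest count came without control replicate 2. Members past the threshold then numbered between 0 and 4, with 4 of 71 without Hes1eKO replicate 2 (*Mrpl1*, *Mrpl58*, *Mrps14*, *Mrps21*), where 3.07% of genes and 4.69% of all rows passed, and 3 of 71 without control replicate 2 (*Mrpl47*, *Mrpl50*, *Mrpl57*), where 3.3% of genes and 6.14% of all rows did.

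The median of all members stayed negative, between -0.38 and -0.11, as did those of the large (-0.40 to -0.11) and the small subunit (-0.34 to -0.06), and 46 to 63 members were negative. It was -0.11 without control replicate 1 and -0.15 without Hes1eKO replicate 1. Medians ran between -0.26 and -0.0311 for proteins under other symbols, -0.17 and -0.0096 for translation factors, -0.0806 and 0.0899 for assembly genes, and -0.14 and 0.28 for transcription and DNA maintenance. The last of these changed sign without Hes1eKO replicate 1 or control replicate 2, and the assembly median without control replicate 1 or Hes1eKO replicate 1. The median within number 2 turned to -0.0099 with the row of largest absolute change per gene, a choice added after the data were seen, and *Mrpl3* turned to -0.0043 with median centring.

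With 1 array left out, single genes that changed sign ranged between -0.14 and 0.22 (*Mrpl10*), -0.26 and 0.32 (*Mrpl11*), -0.54 and 0.001 (*Mrpl24*), -0.26 and 0.11 (*Mrpl27*), -0.24 and 0.26 (*Mrpl3*), -0.24 and 0.50 (*Mrpl35*), -0.40 and 0.12 (*Mrps18c*), -0.11 and 0.35 (*Mrps31*) and -0.50 and 0.0411 (*Ndufab1*). The causes were not tested. A lone array in a group was assumed to vary like the other group. The mean of several rows per gene was not run for the count of members past the threshold. Quantile normalization, limma-trend and the other subunit assignment changed no direction and no call of the results they were run on.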
